A study of Mus musculus with 30 samples.

Results

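The livers of 16 conventionally raised C57BL/6J mice, which carried a gut microbiota, were examined one against another. All 16 animals had eaten a high-fat diet for 11 weeks and had been without food for 10 h, and their age and sex were not given in the sources used here. They were 16 of the 30 livers measured in the series. The other 14, from germfree mice, were not compared. RNA of each liver was labelled and hybridized to its own Illumina single-colour mouse array, so that an array stood for 1 animal and the livers are numbered here as in their titles, 1 to 16. A gene entered when its probe had a detection p-value under 0.05 on all 16 arrays, which held for 6890 of 24613 probes (28%). Where several such probes measured a gene the one with the highest mean was used, giving 6106 genes, of which 5338 had a gene symbol and 768 were kept under a probe identifier. Just inside that limit lay Olfr1037, Rtel1 and Gcfc2, whose highest detection p-value was 0.0499, and just outside lay Zbed4, Abcd4 and Snai3 at 0.0511. Values are log2 signals after background correction and quantile normalization, and the spread of a gene is the SD of its log2 signal over 16 livers. No animal was measured on more than 1 array, so differences between animals and differences between arrays cannot be told apart.

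Hepatocytes secrete most plasma proteins, make bile acids from cholesterol, and switch between storing and releasing glucose and fat with feeding. Inflammatory cytokines make them secrete acute phase proteins such as the serum amyloid A family, and crowding of unfolded protein in the endoplasmic reticulum makes them produce more chaperones. Sterol synthesis is adjusted through transcription factors of the SREBP family, which act on most enzymes of the pathway together. A piece of liver also holds Kupffer cells, which are resident macrophages, together with endothelial, stellate and bile duct cells.

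The arrays differed in brightness. The mean raw signal ran from 85.5 in liver 6, the dimmest, to 359 in liver 11, and the share of probes detected ran from 33.7% to 41.7%. The correlation of log2 signals between any 2 livers, across the genes kept and as a description only, lay between 0.958 and 0.990. Of 17 hepatocyte genes on a fixed list 15 had a probe, and 13 were detected on all 16 arrays. The probe of albumin, Alb, was detected on 2 arrays and that of the fibrinogen chain Fgb on none. Of 20 markers of T, NK and B cells 14 had a probe, and none was detected on all 16 arrays. In bulk liver, fewer cells of a type and less RNA per cell cannot be told apart.

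Liver 5 stood apart from the others in genes of skeletal muscle. None of 13 fixed skeletal muscle markers entered the analysis, because none was detected on every array, but 11 had a probe and 10 of these had a raw signal in liver 5 more than 2 times that of the next liver. The raw signal of Acta1, the actin of the skeletal muscle sarcomere, was 7132 in liver 5 and between 26.9 and 68.9 in the other 15 livers. The fast troponin genes Tnni2, Tnnc2 and Tnnt3 gave 3590, 3433 and 2318 in liver 5, and at most 66.2, 92.1 and 69.9 elsewhere. Myoglobin, Mb, gave 1222 and the creatine kinase gene Ckm 510.2, and 9 of the 11 genes were detected in liver 5 alone. Among the marker lists of other cells and tissues examined, liver 16 held the only other marker that stood out in this way. The raw signal of Ctrb1, the pancreatic protease precursor chymotrypsinogen B, was 175 there and at most 77.0 in the other livers, while Cpa1 and Clps, also of the exocrine pancreas, were highest in liver 16 but less than 2 times the next liver. Of the 14 genes of the exocrine pancreas list with a probe, 5 were highest in liver 16 and 9 in other livers. Raw signals also carry the brightness of the array, and the mean raw signal was 333 in liver 16 beside a median of 251 over all livers. Among the 5, Amy2a5 (6903, next 6034) and Cela1 (702, next 605) were detected on all 16 arrays.

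**Figure D1:**
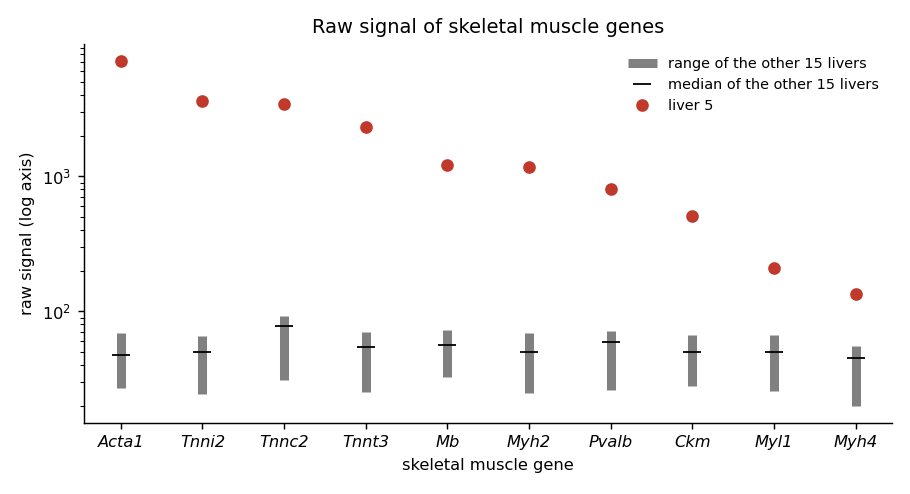
Raw signal (log axis) of the 10 skeletal muscle genes that stood out, in liver 5 (red points) and in the other 15 livers (grey bars span their lowest to highest value, black ticks mark their median). Liver 5 lies above the grey bar for every gene shown, from 135 for Myh4 to 7132 for Acta1.

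The brightest probes were those of secreted plasma proteins and a metallothionein. The 10 named genes with the highest mean log2 signal were Serpina1b (14.94 ± 0.09, SD, n = 16), Saa1 (14.86 ± 0.14), Apoa2 (14.85 ± 0.14), Fga (14.81 ± 0.11), Apoa1 (14.78 ± 0.13), Serpina1d (14.77 ± 0.14), Hp (14.77 ± 0.14), Hpx (14.76 ± 0.14), Mt1 (14.70 ± 0.19) and Apoc1 (14.69 ± 0.18). They encode protease inhibitors of the alpha-1 antitrypsin family, a serum amyloid, 3 apolipoproteins of circulating lipoproteins, a chain of fibrinogen, the haemoglobin and haem scavengers haptoglobin and hemopexin, and the metal-binding protein metallothionein. A probe's brightness also depends on how well it binds, so this order is one of signal and not of transcript number. Albumin, Alb, is absent from the order because its probe was detected on only 2 of the 16 arrays. Serpina1b and Serpina1d belong to a family of near-identical copies, and their probes may share transcripts. Bright genes varied little. Among the genes in the top 1% of mean signal, with means above 13.35, the median SD was 0.17. Apoa1 ranged from 14.38 in liver 16 to 14.92 in liver 2 with a median of 14.82, and liver 16 was low. Without it the SD of Apoa1 was 0.08. These probes held the highest ranks on every array, and quantile normalization gives a rank the same value on each array, so their spread shows changes of rank.

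Most genes differed little between animals. The median SD was 0.24 and its quartiles were 0.19 and 0.30. An SD above 0.5 was reached by 240 genes (3.93%) and an SD above 1 by 21, while 35 genes had an SD below 0.1. The top 5% of the distribution, used below to describe gene lists, held 306 genes (5.01%) with an SD above 0.47. Where a gene had further probes detected on all arrays, these followed the probe used with a median r of 0.39 over 784 further probes and 0.72 over the 25 that belonged to genes in the top 5%, given as descriptions over 16 livers.

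**Figure D2:**
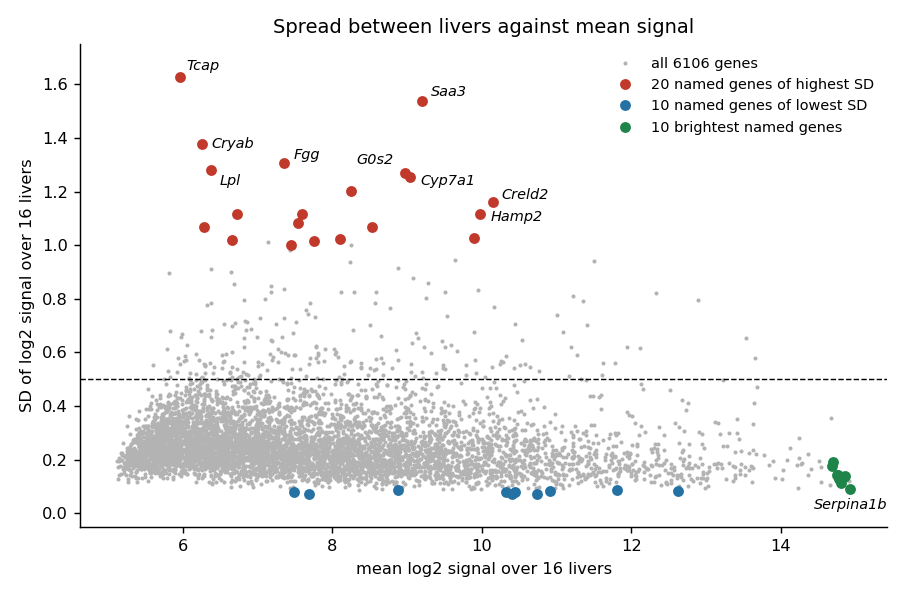
SD of the log2 signal over 16 livers (vertical axis) against the mean log2 signal (horizontal axis) for each of the 6106 genes, with the 20 named genes of highest SD in red, the 10 of lowest SD in blue and the 10 brightest in green. The dashed line marks an SD of 0.5, exceeded by 240 genes, and the brightest genes lie at an SD of 0.19 or below.

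The 20 named genes with the highest SD were Tcap, Saa3, Cryab, Fgg, Lpl, G0s2, Cyp7a1, Erdr1, Creld2, Hamp2, Sqle, Pdk4, Tff3, Fhl1, Hsd3b5, Egr1, Igfbp1, Pfkm, Zc3h13 and Arrdc3. They were chosen by this spread, which is therefore a description. For 8 of the 20 the highest value was in liver 5, and for 6 the lowest was in liver 13. Tcap, which encodes the titin cap protein of the sarcomere, had the highest SD of all, 1.63. Its lowest value was 5.09 in liver 12, its median 5.58 and its highest 12.01 in liver 5, followed by 5.87 in the next liver. Only liver 5 was high, and without it the SD of Tcap was 0.21. The same liver held the highest value of Cryab, a small heat shock protein abundant in muscle (11.33, next 6.34), of lipoprotein lipase, Lpl (10.98, next 6.76), of Fhl1, a LIM-domain protein of striated muscle (10.19, next 6.48), of the muscle phosphofructokinase Pfkm (10.08, next 7.09) and of Pdk4, which restrains pyruvate oxidation (10.31, next 7.76). Without liver 5 the SDs were 0.27 for Cryab, 0.37 for Lpl, 0.23 for Fhl1, 0.47 for Pfkm and 0.59 for Pdk4. Of these genes Pdk4 alone kept an SD above 0.5, and over the other 15 livers it ranged from 5.76 in liver 6 to 7.76.

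Apart from Hamp2, the other highly variable genes had an SD of at least 0.83 whichever liver was left out. Saa3, an acute phase serum amyloid that is also made by macrophages, ranged from 6.93 in liver 13 through a median of 8.79 to 11.99 in liver 14, a 33.4-fold range. Livers 11 and 15 were also high and livers 3, 12 and 16 low, and the SD of 1.54 was 1.39 when liver 14 was left out. Creld2, a chaperone of the endoplasmic reticulum, ranged from 8.62 in liver 13 to 12.28 in liver 14 with a median of 9.82. Egr1, an immediate-early transcription factor, ran from 7.46 in liver 13 to 11.17 in liver 2 around a median of 10.15, and livers 12 and 13 were both well below the rest. Igfbp1, an IGF-binding protein that insulin represses, was also lowest in liver 13, at 5.74, and its highest value was 9.40 in liver 3. Liver 14 gave the highest value of Zc3h13, a subunit of the RNA methylation machinery, at 9.47, against a lowest of 6.03 in liver 13. A further probe for Zc3h13 followed the one used with r = 0.96.

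Several of the most variable genes act on lipid and sterol. Cyp7a1, which catalyses the first and limiting step of bile acid synthesis, ranged from 6.36 in liver 14 through a median of 9.27 to 10.54 in liver 5, an 18.2-fold range. Livers 11 and 14 lay more than 1 log2 unit below all others. G0s2, an inhibitor of the triglyceride lipase ATGL, ranged from 6.90 in liver 14 to 10.84 in liver 3 with a median of 8.75. Sqle, the epoxidase that commits squalene to sterols, ranged from 5.61 in liver 6 to 9.25 in liver 10 with a median of 7.65, and livers 5 and 6 were the lowest. Hsd3b5, a male-biased hydroxysteroid dehydrogenase, ranged from 5.91 in liver 11 to 9.94 in liver 3 with a median of 8.61. Arrdc3, an arrestin-family protein, was lowest in liver 14 (6.00) and highest in liver 13 (9.05), the reverse of Saa3 in those livers.

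Among the rest, Hamp2, a hepcidin-related gene, was low in a single liver, at 6.52 in liver 3 against 9.22 in the next lowest and 11.24 at the highest. Its SD was 1.12 with and 0.65 without liver 3. Hamp, the hepcidin that blocks iron export, did not share that low value, and its lowest value was 13.17, in liver 12. The mucosal repair peptide gene Tff3 ranged from 6.04 in liver 16 to 9.37 in liver 5 and 9.32 in the next liver, with a median of 7.30. Livers 5, 7 and 10 were high for Tff3, whereas the muscle markers stood out in liver 5 alone. Erdr1 ranged from 6.11 in liver 12 to 10.87 in liver 8. The fibrinogen gamma chain gene Fgg ranged from 5.45 in liver 13 to 9.35 in liver 2 with a median of 7.88, and livers 7, 12, 13 and 15 were all near the lowest value. Fga, another fibrinogen chain, had an SD of 0.11, but its probe was among the brightest, where the scale shows ranks only.

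The least variable genes, among those brighter than the median gene and outside the top 1%, ran machinery that all cells use, with some liver products beside it. They were Masp2 (SD 0.07), Atp6v1c1 (0.07), Romo1 (0.07), Atp6v1f (0.08), Acsf3 (0.08), Lrp10 (0.08), Vps28 (0.08), Cox5b (0.08), Polr2j (0.09) and F9 (0.09). Atp6v1c1 and Atp6v1f are subunits of the proton pump of lysosomes, Vps28 sorts membrane proteins, Cox5b belongs to cytochrome oxidase and Polr2j to RNA polymerase II. Masp2, a serine protease of the lectin pathway of complement, lay between 10.62 in liver 6 and 10.82 in liver 8. Coagulation factor IX, F9, lay between 11.63 in liver 1 and 11.99 in liver 16. A further probe for Atp6v1c1 had an SD of 0.29 and did not follow the one used (r = -0.16).

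Gene lists showed where the spread was concentrated. The value for all 6106 genes was a median SD of 0.24 with 5.01% in the top 5%. Of 13 heat shock and unfolded protein genes that were kept, 10 were in the top 5% and the median SD was 0.55. Among the 10 was Hspb1 (SD 0.56), a member of the group set apart by liver 5 that is described below. Of 11 immediate-early and stress genes, 8 were in the top 5%, with a median SD of 0.56. Acute phase genes had 11 of 23 in the top 5% and a median SD of 0.41. The list also holds Saa1, with an SD of 0.14, whose probe is among the brightest, where the scale shows ranks only. Cholesterol synthesis genes had 6 of 12 and a median SD of 0.44. The list of lipid droplet genes and targets of Pparg, the nuclear receptor that drives fat storage, had 4 of 7 and a median SD of 0.49, and gluconeogenesis and insulin-responsive genes 5 of 10 and 0.46.

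At the other end, 20 genes of the respiratory chain had a median SD of 0.14, 11 ribosomal protein genes 0.18 and 13 hepatocyte secreted and core genes 0.18. The hepatocyte list includes Apoa1 and Apoa2, which are among the brightest probes, where the scale shows ranks only. Bile acid genes had a median SD of 0.30 with 3 of 14 in the top 5%, and fatty acid and triglyceride synthesis genes 0.42 with 5 of 16. For targets of PPARA, the receptor that governs fat oxidation in fasting, the median SD was 0.25 with 3 of 11 in the top 5%, Cyp4a14 and Cyp4a10 among them. None of 14 interferon response genes was in the top 5%. Of 14 male-biased liver genes 6 were, Hsd3b5 among them. Lists that mark other cells had median SDs of 0.36 (8 Kupffer cell genes), 0.33 (12 sinusoidal endothelial genes), 0.29 (8 stellate and matrix genes), 0.44 (5 bile duct genes) and 0.41 (3 erythroid genes). The 5 bile duct genes kept were Krt8, Krt18, Sox9, Tff3 and Wfdc2. Of 11 bile duct genes with a probe 4 were detected on no liver, Krt19 and Epcam among them. The same held for 4 of 19 stellate and matrix genes, Col1a1 and Col3a1 among them. No Kupffer or endothelial gene reached the top 5%, but the endothelial Clec4g (0.468) and the Kupffer Adgre1 (0.467) lay just under its limit of 0.470. Of 14 neutrophil and monocyte markers 3 were kept, and S100a8 and S100a9, which form the neutrophil protein calprotectin, each had an SD of 0.69. The third, Plac8, had an SD of 0.31 and was not in the top 5%. Of the 13 markers of this list with a probe, 4 were detected on no liver.

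Of the 200 genes with the highest SD, 137 fell into 7 groups of at least 5 genes that covaried over the 16 livers, and 63 were in no such group. Since the groups were built from these values, their cohesion is given without a test. The largest had 52 genes, among them Saa3, Creld2, Egr1, Igfbp1, Hspa5, Ddit3, Socs3, Cxcl1 and Lcn2, with a mean r between members of 0.69. It joined 6 of the 13 heat shock and unfolded protein genes kept (Hspa5, Hsp90b1, Pdia4, Sdf2l1, Creld2, Ddit3), 7 of the 23 acute phase genes (Saa2, Saa3, Orm2, Lcn2, Apcs, Steap4, Socs3), 5 of the 11 immediate-early genes (Jun, Junb, Egr1, Zfp36, Gadd45g) and both S100a8 and S100a9. The mean of the group, each gene centred on its own mean, was 1.10 in liver 14, 0.75 in liver 2 and 0.74 in liver 11. It was -1.08 in liver 13 and -0.91 in liver 12. Hspa5, the main chaperone of the endoplasmic reticulum, ran from 6.65 in liver 13 to 10.25 in liver 2 with a median of 8.06, and Ddit3, a transcription factor of the stress response, from 5.33 in liver 3 to 8.24 in liver 14 with a median of 6.11. Sdf2l1, another protein of the endoplasmic reticulum, was lowest in liver 13 (5.64) and highest in liver 11 (7.96). The genes whose values were most like Saa3 over the 16 livers were Slc41a2 (r = 0.95), Ngdn (0.94), Sdf2l1 (0.94) and Rnf185 (0.93), and each r was at least 0.91 without the farthest liver.

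Promoter sequence of this group was read for the ER stress element, which the transcription factors of the unfolded protein response bind, because the chaperone genes moved with the acute phase genes. Promoters were windows from 250 bases before to 50 bases after the annotated start, from RefSeq on GRCm38.p6, and 42 of the 50 named genes of the group were in that table. The motif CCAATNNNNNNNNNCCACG, searched on both strands, was in the promoters of 4 of the 42, Hspa5, Creld2, Hsp90b1 and Syvn1, and in 0.119% of all 32851 promoters. None of these 4 promoters belongs to an acute phase gene. They are shown with the motif in capitals, 5′ to 3′ along the strand of the gene, at chr2:34771840-34772139 (plus strand) for Hspa5, chr15:88819396-88819695 (plus strand) for Creld2, chr10:86705395-86705694 (minus strand) for Hsp90b1 and chr19:6046326-6046625 (plus strand) for Syvn1. The match in Creld2 and the downstream match in Hsp90b1 are on the opposite strand and so appear as the reverse complement.
Hspa5: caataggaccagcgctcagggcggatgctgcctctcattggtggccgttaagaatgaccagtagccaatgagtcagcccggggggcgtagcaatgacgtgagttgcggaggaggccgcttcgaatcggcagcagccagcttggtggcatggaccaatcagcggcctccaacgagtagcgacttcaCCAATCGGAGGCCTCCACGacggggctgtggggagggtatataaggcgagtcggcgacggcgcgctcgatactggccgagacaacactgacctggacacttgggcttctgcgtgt
Creld2: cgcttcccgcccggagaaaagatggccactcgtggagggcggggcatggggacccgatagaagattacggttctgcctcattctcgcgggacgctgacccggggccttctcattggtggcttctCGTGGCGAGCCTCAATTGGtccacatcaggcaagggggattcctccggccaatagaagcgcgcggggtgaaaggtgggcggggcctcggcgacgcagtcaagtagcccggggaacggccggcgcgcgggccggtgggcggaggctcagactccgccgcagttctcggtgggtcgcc
Hsp90b1: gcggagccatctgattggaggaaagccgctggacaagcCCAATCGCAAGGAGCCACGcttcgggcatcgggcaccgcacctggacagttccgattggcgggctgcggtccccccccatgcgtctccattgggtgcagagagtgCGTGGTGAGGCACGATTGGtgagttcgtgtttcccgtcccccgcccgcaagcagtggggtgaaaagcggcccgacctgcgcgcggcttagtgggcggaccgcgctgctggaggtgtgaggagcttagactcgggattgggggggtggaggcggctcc
Syvn1: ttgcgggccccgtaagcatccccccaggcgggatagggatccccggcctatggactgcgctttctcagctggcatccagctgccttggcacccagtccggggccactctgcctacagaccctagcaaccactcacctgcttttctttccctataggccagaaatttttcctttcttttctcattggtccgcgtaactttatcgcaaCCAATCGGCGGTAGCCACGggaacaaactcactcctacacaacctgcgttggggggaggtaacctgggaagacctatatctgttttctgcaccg
Counted from the annotated start, the match began at base -65 in Hspa5, -126 in Creld2, -212 and -107 in Hsp90b1 and -44 in Syvn1. It is a match of letters and not a measured binding site, and its absence from the promoters of Pdia4, Sdf2l1 and Saa3 says only that the letters are not in those windows.

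A further group held 19 genes led by G0s2 and Cyp7a1, with a mean r between members of 0.68. Among them were Arrdc3, the water channel gene Aqp8, Thrsp, which promotes fatty acid synthesis, the galectin gene Lgals1, the flagellin receptor gene Tlr5 and Pparg. Their mean was 0.92 in liver 13 and 0.82 in liver 12, and -1.07 in liver 11 and -0.85 in liver 14. These were the livers in which the Saa3 and Creld2 group was at its lowest and among its highest, so the groups ran in opposite directions. Thrsp ranged from 9.58 in liver 2 to 12.46 in liver 12 with a median of 11.25. Pparg ranged from 5.43 in liver 2 to 7.22 in liver 12. The genes most like G0s2 were Paqr7 (r = 0.92), Arrdc3 (0.92), Spon2 (0.92) and Anp32a (0.91), each with an r of at least 0.90 without the farthest liver.

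Sterol synthesis formed a group of its own. It held 7 genes, 1 of them unnamed, and the other 6 were on the list of 12 cholesterol synthesis genes kept. The 6 were Hmgcs1, which makes the precursor of mevalonate, Fdps, which builds farnesyl diphosphate, Sqle, and the later enzymes Cyp51, Msmo1 and Nsdhl. The mean r between members was 0.76. Their mean was 1.07 in liver 1, 0.82 in liver 16 and 0.72 in liver 10, and -0.98 in liver 6 and -0.87 in liver 5. Liver 1 gave the highest value of Hmgcs1 (11.84, median 10.78), Fdps (10.99, median 9.70), Nsdhl (10.66, median 9.53) and Cyp51 (8.13, median 7.20). Liver 6 gave the lowest of Sqle, Fdps (9.14) and Cyp51 (6.02), and it was also the dimmest array. Over the whole list the median r between members was 0.60, against 0.00 over all pairs of the 6106 genes. The same value was 0.86 for the 3 neutrophil and monocyte genes, 0.60 for the 8 Kupffer cell genes and 0.54 for the 11 immediate-early genes. It was lower for the other lists that had a value. The sterol regulatory element TCACNCCAC, searched on both strands, was in 1 of the 4 named members found in the promoter table, in 2 of 42 of the Saa3 and Creld2 group (Hsp90b1 and Saa3) and in 1.24% of all promoters. The sterol group member was Hmgcs1, at chr13:119690101-119690400 (plus strand, GRCm38.p6, RefSeq), with the element in capitals, starting at base -137.
Hmgcs1: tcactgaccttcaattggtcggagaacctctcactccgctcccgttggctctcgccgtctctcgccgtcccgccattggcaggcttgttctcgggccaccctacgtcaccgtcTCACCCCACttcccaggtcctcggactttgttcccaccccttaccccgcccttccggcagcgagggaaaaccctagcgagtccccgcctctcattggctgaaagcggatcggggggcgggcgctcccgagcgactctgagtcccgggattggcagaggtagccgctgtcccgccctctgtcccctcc

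**Figure D3:**
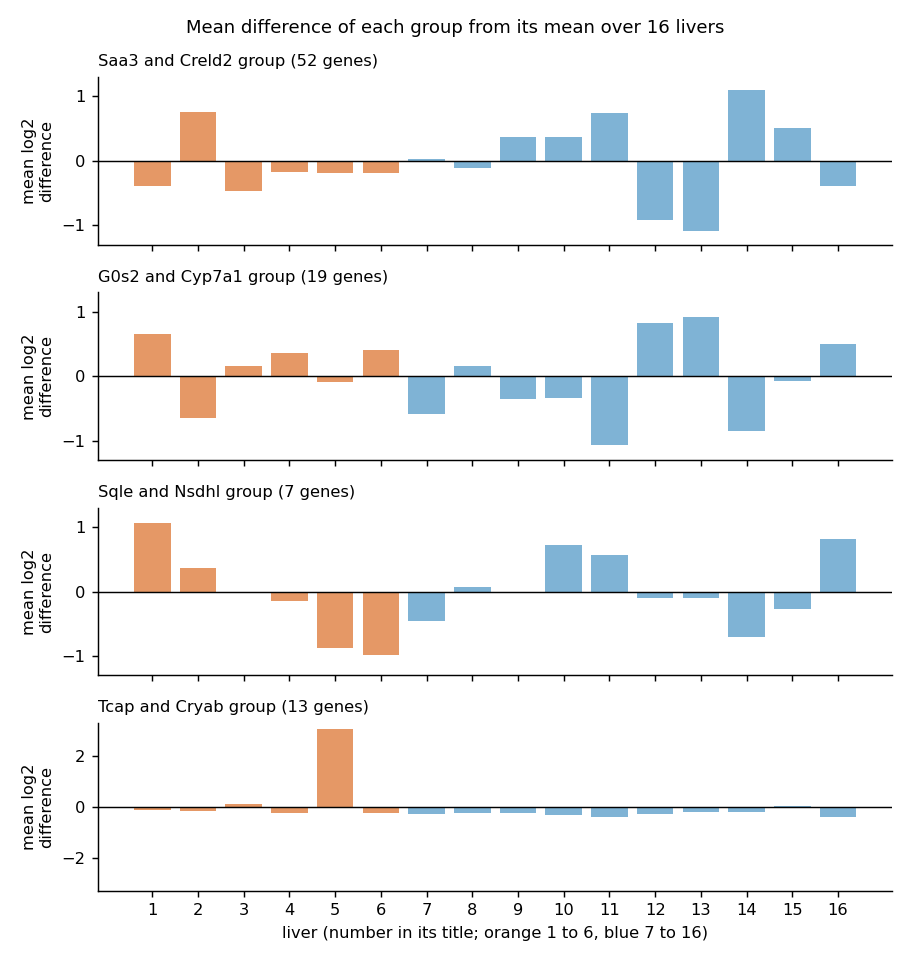
Mean log2 difference of 4 covarying groups from their mean over 16 livers (vertical axis), for each liver by the number in its title (horizontal axis, orange for livers 1 to 6 and blue for 7 to 16). The Saa3 and Creld2 group peaks in liver 14 at 1.10 where the G0s2 and Cyp7a1 group is at -0.85, and the Tcap and Cryab group is at 3.07 in liver 5 and between -0.41 and 0.10 elsewhere.

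A group of 13 genes was set apart by liver 5 and carried the muscle-rich genes described above, Tcap, Cryab, Lpl, Pdk4, Fhl1 and Pfkm, with Cpt1b, the muscle carnitine palmitoyltransferase, Pkm, Myom2, Aldoa, Hspb1, Mef2c and Ifi27l2a. Its mean was 3.07 in liver 5 and between -0.41 and 0.10 in the other livers. The mean r between its members was 0.78 over 16 livers and 0.08 without liver 5, when single pairs ran from -0.63 to 0.61. Tcap and Cpt1b had r = 0.98 over 16 livers and 0.02 without liver 5, and Cryab and Fhl1 0.98 and 0.61. When liver 5 was left out before the clustering, an alternative added after its muscle genes were seen, 8 groups were found and none of them held any of these 13 genes. The group of Saa3 and Creld2 then kept 50 of its 52 genes and the sterol group 6 of 7.

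Of the 3 remaining groups, one held 33 genes, 25 of them named, and is taken up with the title sets because it followed the title number. Another held 8 genes, among them the dipeptidyl peptidase gene Dpp9, Chac1, which degrades glutathione, the survival gene Bcl2l1 and Cyp7b1, an enzyme of the alternative bile acid pathway, with a mean r of 0.72. It was highest in livers 7 and 11, at 0.78 in each, and lowest in liver 1, at -0.69. The last held 5 genes, of which Plbd2 and the kinase gene Plk3 were named, and was lowest in livers 16 (-1.14) and 13 (-0.93). With the means of both title sets removed before the clustering, 8 groups were found. The Saa3 and Creld2 group then shared 49 of its 52 genes with one of them and the sterol group all 7. The G0s2 and Cyp7a1 group shared 11 of 19 and the Tcap and Cryab group 10 of 13. The group of 33 shared 8, the Dpp9 group 1 of 8 and the Plbd2 group 0 of 5.

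Gene pairs with a known relation were tested over the 16 livers. Of 30 fixed pairs 21 had both genes kept, and p-values from 100000 permutations of the livers (two-sided) were adjusted over these 21 by the method of Benjamini and Hochberg. The pairs were chosen with earlier results of these data known. Cyp4a14 and Cyp4a10, omega-hydroxylases of fatty acids that PPARA induces, had r = 0.89 (permutation adjusted p = 0.00063, Spearman rho 0.85, permutation adjusted p = 0.00105). Cyp4a14 ran from 9.45 in liver 7 to 12.16 in liver 2 with a median of 11.74, and Cyp4a10 from 12.004 in liver 7 to 13.87 in liver 3 with a median of 13.36. Within livers 1 to 6 r was 0.96, within livers 7 to 16 it was 0.91, and without the 2 livers farthest from the median of Cyp4a14 it was 0.81. The 2 genes have similar sequences, so their probes may share transcripts, and a further Cyp4a10 probe followed the first with r = 0.72.

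The acute phase genes Saa2 and Orm2, which encode a serum amyloid and an orosomucoid, had r = 0.79 (permutation adjusted p = 0.00179, rho 0.85, permutation adjusted p = 0.00105). Saa2 ran from 12.10 in liver 13 to 14.28 in liver 2 and Orm2 from 10.92 in liver 13 to 13.22 in liver 11, so that liver 13 was lowest for both. Within the title sets r was 0.79 and 0.85, and 0.73 without the 2 farthest livers. Hmgcs1 and Sqle had r = 0.71 (permutation adjusted p = 0.0170, rho 0.66, permutation adjusted p = 0.0439), with 0.91 within livers 1 to 6, 0.50 within livers 7 to 16 and 0.71 without the 2 farthest. Igfbp1 and Pck1, both repressed by insulin, had r = 0.66 (permutation adjusted p = 0.0257). Their rank correlation did not pass (rho 0.58, permutation adjusted p = 0.106), r was 0.44 without the 2 livers farthest from the median of Igfbp1, and within the sets it was 0.69 and 0.68. The pair did not pass without liver 2, 3 or 13 (permutation adjusted p = 0.0546, 0.0916 and 0.152).

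**Figure D4:**
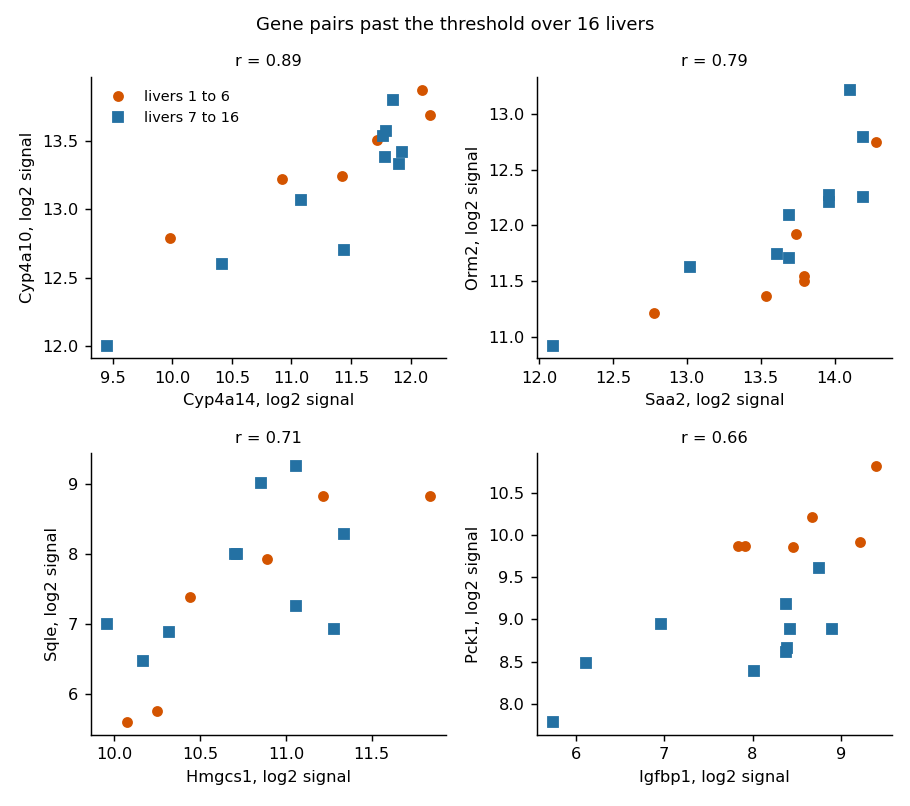
Log2 signals of the 4 gene pairs that passed, a point per liver (orange circles for livers 1 to 6, blue squares for livers 7 to 16). The r above each panel is over all 16 livers, from 0.89 for Cyp4a14 and Cyp4a10 to 0.66 for Igfbp1 and Pck1.

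The other 17 pairs did not pass. The markers C1qa and Clec4f, of macrophages and Kupffer cells, had r = 0.60 (permutation adjusted p = 0.0612), with 0.70 and 0.86 within the title sets, and the pair passed with both set means removed (r = 0.79, permutation adjusted p = 0.00343). Hamp and Saa1 had r = -0.55 (permutation adjusted p = 0.0958). Scd1 and Fasn, the desaturase and the synthase of new fatty acids, had r = 0.31 (permutation adjusted p = 0.372) with 0.89 and 0.50 within the sets, and also passed with the set means removed (r = 0.63, permutation adjusted p = 0.0249), as did Hamp and Saa1 (r = -0.64, permutation adjusted p = 0.0249). The metallothioneins Mt1 and Mt2 had r = -0.38 (permutation adjusted p = 0.310). Saa1 and Lcn2, both acute phase genes, had r = -0.36 (permutation adjusted p = 0.327). Saa1 and Mt1 were among the brightest probes, where the scale shows ranks only. Cyp7a1 and Cyp8b1, both enzymes of bile acid synthesis, had r = 0.32 (permutation adjusted p = 0.368), with -0.98 within livers 1 to 6 and 0.50 within livers 7 to 16. The difference between those values was not tested.

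The first principal axis held 23.4% of the variance of all genes kept and had Saa3, Creld2, Zc3h13, Egr1 and Hspa5 at one end and G0s2, Cyp7a1, Arrdc3, Aqp8 and Thrsp at the other. Livers 14 (19.4), 2 (16.8) and 11 (15.7) lay at the Saa3 end and livers 12 (-17.1) and 13 (-17.0) at the G0s2 end. Its r with the mean raw signal was 0.17 (permutation adjusted p = 0.645 over 4 relations, rho 0.16, permutation adjusted p = 0.549), and within the title sets it was -0.02 and 0.28. Its r with the share of probes detected was 0.15 (permutation adjusted p = 0.645). The second axis held 18.2% and separated the livers by title number. Livers 1 to 6 lay between -14.8 and -6.97 and livers 7 to 16 between -2.07 and 17.2. Fgg, Bhmt, Rgn, Tcap and Glul lay at the end of livers 1 to 6, and Erdr1 and Dpp9 at the other. Tcap was high in liver 5 alone, at 12.01, with medians of 5.67 in livers 1 to 6 and 5.55 in livers 7 to 16. Liver 5 also had the lowest score on this axis, -14.8. The axis means were -10.2 ± 3.11 (SD, n = 6) and 6.11 ± 6.30 (SD, n = 10, exact permutation p = 0.000125, two-sided, the smallest 6 against 10 livers can give). The title split was named with earlier results of these data known, so this p describes the separation and is not an independent test. Over all 16 livers the r of the second axis with the mean raw signal was 0.59 (permutation adjusted p = 0.0640, rho 0.61, permutation adjusted p = 0.0608), and 0.50 without the 2 livers farthest from the median. Within the title sets it was 0.33 and 0.25. With the share of probes detected the second axis had r = 0.13 (permutation adjusted p = 0.645), with 0.06 within livers 1 to 6 and -0.73 within livers 7 to 16.

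The labels give no batch. Titles 1 to 6 and 7 to 16 were compared as a possible unlabelled batch, in a split named with earlier results of these data known, and the comparison describes arrays and not a treatment. The arrays themselves differed. The mean raw signal was 197 ± 70.8 (SD, n = 6) in livers 1 to 6 and 274 ± 48.0 (SD, n = 10) in livers 7 to 16 (exact permutation p = 0.0189, two-sided), with overlapping ranges of 85.5 to 288 and 208 to 359. The share of probes detected was 37.4% ± 2.33 and 39.0% ± 1.505 (exact permutation p = 0.118). Differences below are livers 1 to 6 minus livers 7 to 16 on the log2 scale ± SE, tested in limma with adjustment over all 6106 genes.

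Of the 6106 genes, 243 (3.98%) passed the adjusted threshold of 0.05. In livers 1 to 6, 165 of them (2.7%) were higher and 78 (1.28%) lower. The median size of their difference was 0.52, and 19 were higher and 0 lower by at least 1. Below an unadjusted p of 0.05 lay 1263 genes in limma. For 75 genes (1.23%), 71 of them among those that passed, the livers of the 2 sets did not overlap. After cyclic loess in place of quantile normalization 174 were higher and 46 lower, and with the mean log2 raw signal of each array as a covariate 100 and 7. Without liver 2 the total was 161. The mean raw signal moves with the title sets, and its part in these differences was tested only by that covariate fit, in which 98 of the 107 genes that passed were among the 243.

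The largest difference was that of Bhmt, which remethylates homocysteine with betaine. It lay between 10.35 and 10.84 in livers 1 to 6 (median 10.73) and between 8.33 and 10.15 in livers 7 to 16 (median 9.19), without overlap (1.65 ± 0.22, limma adjusted p = 0.000243). Regucalcin, Rgn, a calcium-binding enzyme of pericentral hepatocytes, lay between 8.20 and 8.88 against 6.33 and 7.57 (1.39 ± 0.15, limma adjusted p = 6.0e-05). Pck1, the gluconeogenic carboxykinase, lay between 9.86 and 10.81 against 7.78 and 9.61 (1.35 ± 0.21, limma adjusted p = 0.000933). Every one of livers 1 to 6 was thus above every one of livers 7 to 16 for these 3 genes. Glutamine synthetase, Glul, of the hepatocytes around the central vein (1.297 ± 0.24), catalase, Cat (1.28 ± 0.21), and Cyp2c29 (1.20 ± 0.22) also passed but their ranges overlapped. The small subunits of ATP synthase Atp5md (1.28 ± 0.15) and Atp5k (1.16 ± 0.19) and the G protein subunit Gng5 (1.22 ± 0.17) did not overlap. Mup2, a major urinary protein of a family of near-identical genes, differed by 1.23 ± 0.33 (limma adjusted p = 0.0377) and no longer passed when any of 10 of the 16 livers was omitted, nor with the raw signal covariate.

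The genes lower in livers 1 to 6 differed by less. Nop2, which methylates ribosomal RNA, lay between 5.30 and 5.99 in livers 1 to 6 and between 6.05 and 6.79 in livers 7 to 16 (-0.71 ± 0.12, limma adjusted p = 0.00220). It was followed by Pmm2 (-0.69 ± 0.16), the heparan sulfate proteoglycan Sdc1 (-0.68 ± 0.12), the actin-branching subunit Arpc1b (-0.67 ± 0.12), the kinase Sik3 (-0.62 ± 0.17), the mitochondrial import subunit Tomm6 (-0.60 ± 0.13), B4galnt1 (-0.60 ± 0.14), Zfp12 (-0.58 ± 0.14), Eef1e1 (-0.57 ± 0.16) and the histone gene H2ax (-0.56 ± 0.15). Nop2 and Tomm6 did not overlap between the sets. Several of these had a mean signal near the lower end of the scale, and Eef1e1, Sik3, H2ax, Pmm2, Zfp12 and B4galnt1 no longer passed when any of 11, 11, 8, 5, 4 and 1 of the 16 livers, respectively, was omitted. With the raw signal covariate, Tomm6 and these 6 genes did not pass. The difference of Pmm2 was -0.23 without liver 9 and -0.27 without liver 14, when its other probe, which differed by -0.20 over all livers (limma adjusted p = 0.474), was the one used.

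**Figure D5:**
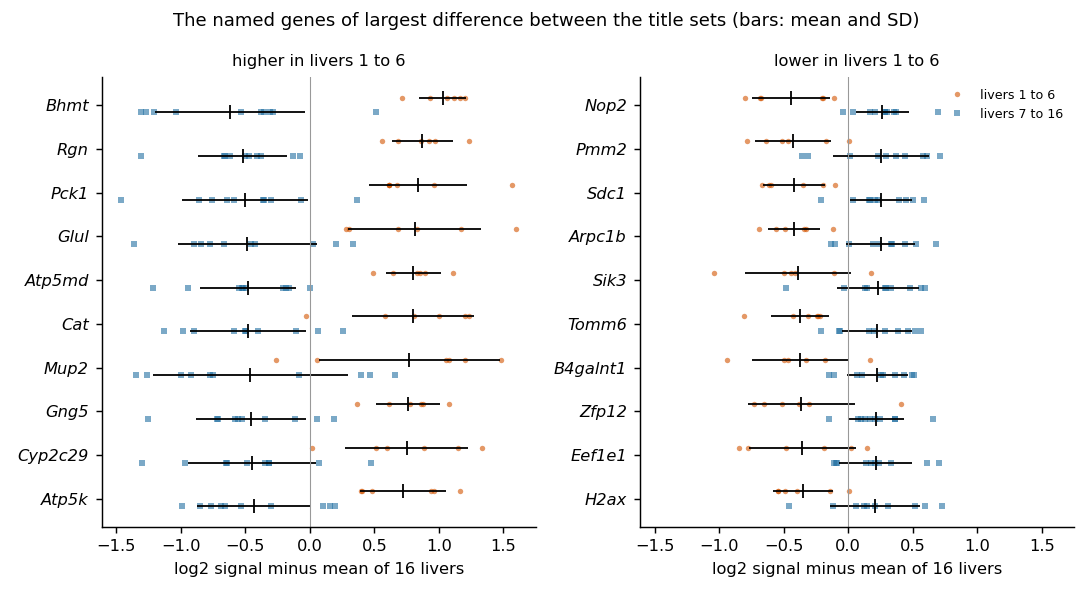
Log2 signal minus the mean of 16 livers (horizontal axis) for the 10 named genes with the largest differences in each direction, livers 1 to 6 as orange circles and livers 7 to 16 as blue squares, with the mean and SD of each set in black. The sets are apart for Bhmt, Rgn, Pck1, Atp5md, Gng5, Atp5k, Nop2 and Tomm6 and overlap for the other 12 genes.

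The covarying group of 33 genes followed the same split. Its mean lay between 0.37 and 0.95 in livers 1 to 6 and between -0.997 and 0.24 in livers 7 to 16, and 25 of the 33 passed in the title comparison, read against a background of 3.98%. These are not independent of the spread that chose the group. It held Fgg (1.60 ± 0.47, limma adjusted p = 0.0629, which did not pass), Bhmt, Pck1, Glul, Rgn, Tdo2, Selenop (1.03), Serpinc1 (1.08), Hmgb1 and Mdh2. The group also had the subunits Atp5a1 (1.05), Atp5k, Ndufb4 (1.12) and Cox7b (0.97) of the respiratory chain and ATP synthase. Of these subunits only Atp5a1 is on the fixed list of 20 respiratory chain genes, whose median difference was -0.05. The genes most like Fgg were Tdo2 (r = 0.97), Wfdc21 (0.96), Fh1 (0.95) and Cct5 (0.92), each with an r of at least 0.91 without the farthest liver.

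Over all genes 2.7% were higher in livers 1 to 6 and 3.98% passed in either direction. Of 13 hepatocyte core genes 3 were higher in livers 1 to 6, among them Serpinc1 and Apoh (0.50), with a list median of 0.10 beside -0.01 for all genes. Of 10 pericentral genes 2 were higher (Glul and Rgn), with a list median of 0.03. Of 12 periportal genes 1 was higher (Pck1), with a list median of 0.08. Of 20 respiratory chain genes 2 were higher (Atp5a1 and Ndufb5, 0.66), with a list median of -0.05. Of 20 glutathione and NRF2 genes 2 were higher (Cat and Txnrd1, 0.73), with a list median of -0.03. Of 10 gluconeogenesis genes 1 was higher (Pck1), with a list median of 0.17. The lists of acute phase (23 genes), immediate-early (11), unfolded protein (13), cholesterol synthesis (12) and sinusoidal endothelial genes (12) held none that passed in limma, and 3, 1, 1, 0 and 0 of their genes had an unadjusted p below 0.05, beside 20.7% of all genes. Of 8 Kupffer cell genes 1 passed, Clec4f (0.46). Of 11 ribosomal protein genes none passed in limma and 4 had an unadjusted p below 0.05, with a list median of -0.18.

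For 22 of the 243 genes another probe was detected on every array. A further probe also passed in the same direction for 4 of the 22, and for 4 it had the opposite sign without passing. Eif4g2, for example, differed by 0.80 with the probe used and by 0.04 with another.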

How the data were processed

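Total liver RNA was labelled as biotin cRNA and read on Illumina single-colour arrays. The raw signal of each probe is an intensity and comes with a detection p-value, both deposited by the authors in a table whose columns carry these names per the file headers; the software named in the submitters' processing notes is GenomeStudio. The authors also deposited normalized intensity values, used as an alternative. In the table of raw signals, 33 arrays that match no labelled sample were not used. Probes were named through the platform annotation and RefSeq gene identifiers, and 20984 of 24613 probes had 1 symbol.

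The 16 raw columns were background-corrected by normexp with the detection p-values, given an offset of 16, quantile normalized and taken to log2 (neqc in limma 3.58.1, R 4.3.3). Probes with a detection p-value under 0.05 on all 16 arrays were kept. Title sets were compared in limma (lmFit and eBayes, Benjamini-Hochberg over 6106 genes). In data simulated for that comparison over 6106 genes, 65% of genes changed by 0.5 and 97% of those changed by 1 were recovered. Of 5906 unchanged genes in those data, 5 passed. How far these values hold for genes that covary, as the groups described here do, was not tested. Groups came from average linkage on 1 minus r of the 200 genes of highest SD, cut at 0.4. Correlations and clustering were run in Python 3.11.15 with scipy 1.17.1. The number of arrays limits the precision, and p-values measure the spread between these animals and arrays.

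Named genes were the 10 brightest, the 20 most and 10 least variable, the 4 most like each of the 6 most variable, up to 6 central members of each group, the 10 largest title-set differences in each direction, and up to 4 high-SD genes per list, with the genes of the fixed pairs. Genes outside this rule are named as members of a group or list. The members, lists, pairs and the title split were chosen with earlier results of these data known. Alternatives were other background corrections, scalings, filters, probe choices and fits, each liver left out in turn, and the authors' normalized values.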

Additional observations from a re-analysis of the deposited data

Results flagged for a closer look

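Among the 20 most variable genes and 2 measures of the arrays, 7 values lay far from the other livers of their title set, out of 44 sets of values examined. The genes were chosen for their spread, which such a value raises, so the share of 5% that chance gives in unselected sets does not apply. Of the 20 most variable genes, 6 were far above the other livers of titles 1 to 6 in liver 5, with log2 signals of 12.01 for Tcap, 11.33 for Cryab, 10.98 for Lpl, 9.37 for Tff3, 10.19 for Fhl1 and 10.08 for Pfkm. The seventh was Hamp2, which was low in liver 3 at 6.52. Among probes outside the genes kept, raw signals of 10 skeletal muscle genes stood out in liver 5, at 7132 for Acta1, 510.2 for Ckm, 1222 for Mb, 1165 for Myh2, 135 for Myh4, 210 for Myl1, 803 for Pvalb, 3433 for Tnnc2, 3590 for Tnni2 and 2318 for Tnnt3. In liver 16 the pancreatic gene Ctrb1 stood out at 175. The part of muscle tissue in the values of Tcap, Cryab, Lpl, Fhl1, Pfkm and Pdk4 was not tested beyond leaving out liver 5.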

How the results depend on the processing

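The 20 largest SDs among named genes were shared in 14 to 20 of 20 cases across the alternative normalizations, filters and omitted livers. An SD above 0.5 was reached by 240 genes, by 134 without background correction and by 112 in the authors' normalized values and by 221 to 266 with 1 liver left out. Of the title-set calls, 243 in all with 165 higher and 78 lower, median scaling gave 519 (384 higher, 135 lower), cyclic loess 46 lower, the raw signal covariate 107 (100 and 7) and an adjusted p of 0.01 in limma 84 (76 and 8). With 1 liver left out the total ran from 161 to 319, those higher from 119 to 204 and those lower from 31 to 115. The total was 161 without liver 2, and those lower numbered 36, 42, 37, 31, 49, 47, 49 and 47 without liver 1, 2, 5, 6, 7, 8, 10 or 11. Of the differences of the 20 named genes, none changed direction under the alternatives run, with the call lost in 85 repeats and kept in 467. Pairs that passed numbered 4 as reported, 3 to 5 with 1 liver left out, 3 with a detection p under 0.01, 5 under median scaling, 6 under cyclic loess and 7 with the title set means removed. C1qa with Clec4f passed under both scalings (r = 0.67 and 0.63, permutation adjusted p = 0.0206 and 0.0352) and Glul with Cyp2e1 under cyclic loess (r = 0.74, permutation adjusted p = 0.00483). The r of the first axis with the mean raw signal was 0.63 under median scaling and ran from -0.17 to 0.46 with 1 liver left out, and that of the second axis from 0.40 to 0.67. Several small r of pairs that did not pass changed sign. For Hamp with Id1 it was 0.012 without background correction, 0.0058 in the authors' values and -0.16 to 0.21 with 1 liver left out. For Dbp with Per2 it was 0.052 under median scaling, 0.037 under cyclic loess, 0.020 with the set means removed and -0.085 to 0.082 with 1 liver left out. The r of Mt1 with Mt2 was 0.17 and 0.016, and that of Igfbp1 with Mt1 0.22 and 0.035, under median scaling and cyclic loess. The r of G6pc with Pck1 was -0.23 with the set means removed, and that of Cyp7a1 with Cyp8b1 ran from -0.12 to 0.49 with 1 liver left out. The cause of these changes was not tested. No paired analysis was possible because the livers belong to 1 labelled group and their numbers pair nothing. Signals near background limit what can be said of dim genes, and ranks alone are seen for the brightest.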
